A study of Mus musculus with 9 samples.

Results

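The genes described are 42 members of the autophagy machinery and its cargo receptors, measured by RNA-seq in E14 mouse embryonic stem cells, an established line of strain 129. They were taken by name and kept where the mean level over all libraries was at least 0.5 FPKM (fragments per kilobase of transcript, scaled to library size). All 42 of 42 reached that level, among 20287 genes listed in at least 1 library and 13990 genes that reached it and were tested. Cells knocked out (KO) for Hbxip were set against wild-type (WT) cells in 3 cultures, namely pluripotent culture, day 4 of LIF withdrawal (96 h without the cytokine that sustains self-renewal) and embryoid bodies, aggregates in which the cells differentiate. Each culture held 2 KO libraries and 1 WT library, 9 in all. The labels give neither the way Hbxip was disrupted, nor whether the KO libraries are separate clones or cultures, nor the age of the embryoid bodies. All p-values therefore measure only the spread between these libraries, which may be technical.

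Autophagy is the route by which a cell wraps part of its cytoplasm in a double membrane, the autophagosome, and delivers it to lysosomes for breakdown. The ULK1 kinase complex starts the process, a class III PI3-kinase complex marks the membrane with phosphatidylinositol 3-phosphate, and ubiquitin-like conjugation attaches ATG8 proteins (the LC3 and GABARAP families) to the growing membrane, where cargo receptors bind them. HBXIP, also called LAMTOR5, is a subunit of Ragulator, the complex that anchors Rag GTPases on lysosomes so that amino acids can activate mTORC1. Active mTORC1 restrains ULK1 and keeps the transcription factors TFEB and TFE3 out of the nucleus, which ties Ragulator to autophagy genes in textbook schemes.

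Libraries were even in depth, with 10147277 to 10863845 rounded counts. Hbxip itself stood at 31.0 and 29.1 FPKM in KO pluripotent libraries against 40.7 FPKM in WT, at 16.2 and 15.5 against 38.5 FPKM after LIF withdrawal, and at 23.0 and 18.3 against 41.8 FPKM in embryoid bodies. Its fall passed the test after LIF withdrawal and in embryoid bodies, while in pluripotent culture it did not (log2 fold change -0.31, adjusted p = 0.0971 by the quasi-likelihood test of edgeR, Benjamini-Hochberg method), so the genotype is taken from the labels. Of 5 pluripotency markers, 1 rose and 3 fell in KO in pluripotent culture, and 3 rose and 1 fell in each other culture, with Esrrb higher in every culture (log2 fold change 0.38, 1.41 and 1.71) and Zfp42 lower in the first and higher in the others (-0.31, 0.87 and 0.79). Of 5 fibroblast or feeder markers, Postn, Dcn and Col1a2 were at or near 0, with mean levels of 0.003, 0.034 and 0.178 FPKM. The summed level of the 5 was lower in both KO libraries than in WT in every culture, at 16.7 and 21.1 against 36.3 FPKM, 6.06 and 7.68 against 15.1 FPKM, and 20.3 and 21.5 against 31.5 FPKM. Thy1 gave most of each sum, with 34.2 FPKM in WT pluripotent cells. It fell in the first 2 cultures (-0.76 and -0.95) and did not pass in embryoid bodies (-0.37, adjusted p = 0.0674 in edgeR's test). Col1a1 fell in each culture (-3.26, -2.29 and -2.03), at low levels of 0.18 to 5.81 FPKM over all libraries. The part of these marker differences in the results was not tested. Both KO pluripotent libraries lay apart on the first principal component (51.5% of the variance), at 86.5 and 74.5, while the other 7 libraries lay between -64.6 and 11.5.

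In KO cells more autophagy genes rose than fell in each culture, and the rises included the most abundant ATG8 genes and the receptor Sqstm1. In pluripotent culture 18 members rose and 8 fell, which makes 26 of 42 called (adjusted p below 0.05) where 51.8% of all genes tested were called. After LIF withdrawal 13 rose and 5 fell, 18 of 42, beside 35.8% of all genes. In embryoid bodies 16 rose and 3 fell, 19 of 42, beside 37.2% of all genes. The share of members called was 61.9%, 42.9% and 45.2% in the order of the cultures. The direction was less even than in all genes: 42.9%, 31.0% and 38.1% of members rose, beside 25.5%, 18.4% and 19.4% of all genes, and 19.0%, 11.9% and 7.14% of members fell, beside 26.3%, 17.5% and 17.8%. The median log2 fold change of the members was 0.067, 0.141 and 0.295, and that of all genes -0.008, 0.0 and 0.0. The members were chosen with earlier results of these data known, so these shares and medians describe the list and are no independent support. The 3 comparisons use separate libraries but 1 shared estimate of spread, with 3 residual degrees of freedom from the KO pairs. The test also draws the spread of each gene toward that of all genes tested, so its p-values rest on other genes too. With DESeq2 the counts were 16, 11 and 10 members, and the share of all genes called with it is not given here.

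A group of 9 genes rose in KO cells in every culture (6.92% of all genes did so). It held Atg13, Atg14, Uvrag, Atg2a, Map1lc3b, Gabarap, Gabarapl2, Sqstm1 and Optn, from the initiation, PI3-kinase, membrane expansion, ATG8 and receptor groups. Gabarapl1 fell in every culture, as 5.65% of all genes did. In levels alone, both KO libraries lay above the WT library in all 3 cultures for 14 members (15.1% of all genes) and below it for 5 members, Atg9a, Atg16l1, Map1lc3a, Gabarapl1 and Fundc1 (22.1% of all genes). Levels in FPKM are not on the scale of the test. In pluripotent culture the median KO versus WT change of all genes was -0.13 on log2(FPKM + 0.1) and -0.008 in the test. Another 4 members, Ulk1, Rb1cc1, Atg2b and Vmp1, rose in 1 culture and fell in another, at a share (9.52%) close to that of all genes (9.0%). No culture gave a call for 9 members, Ulk2, Atg5, Atg10, Atg16l1, Atg16l2, Atg4a, Atg4c, Bnip3l and Epg5, beside 29.4% of all genes. An additive fit over the 3 cultures, with 5 residual degrees of freedom, called 15 members, 12 higher and 3 lower in KO. It called 27.1% of all genes, 13.3% higher and 13.8% lower. Without the 3 pluripotent libraries, which include the KO pair that lay apart, that fit called 17 members, 14 higher and 3 lower. The share of all genes called in that smaller fit is not given here.

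**Figure D1:**
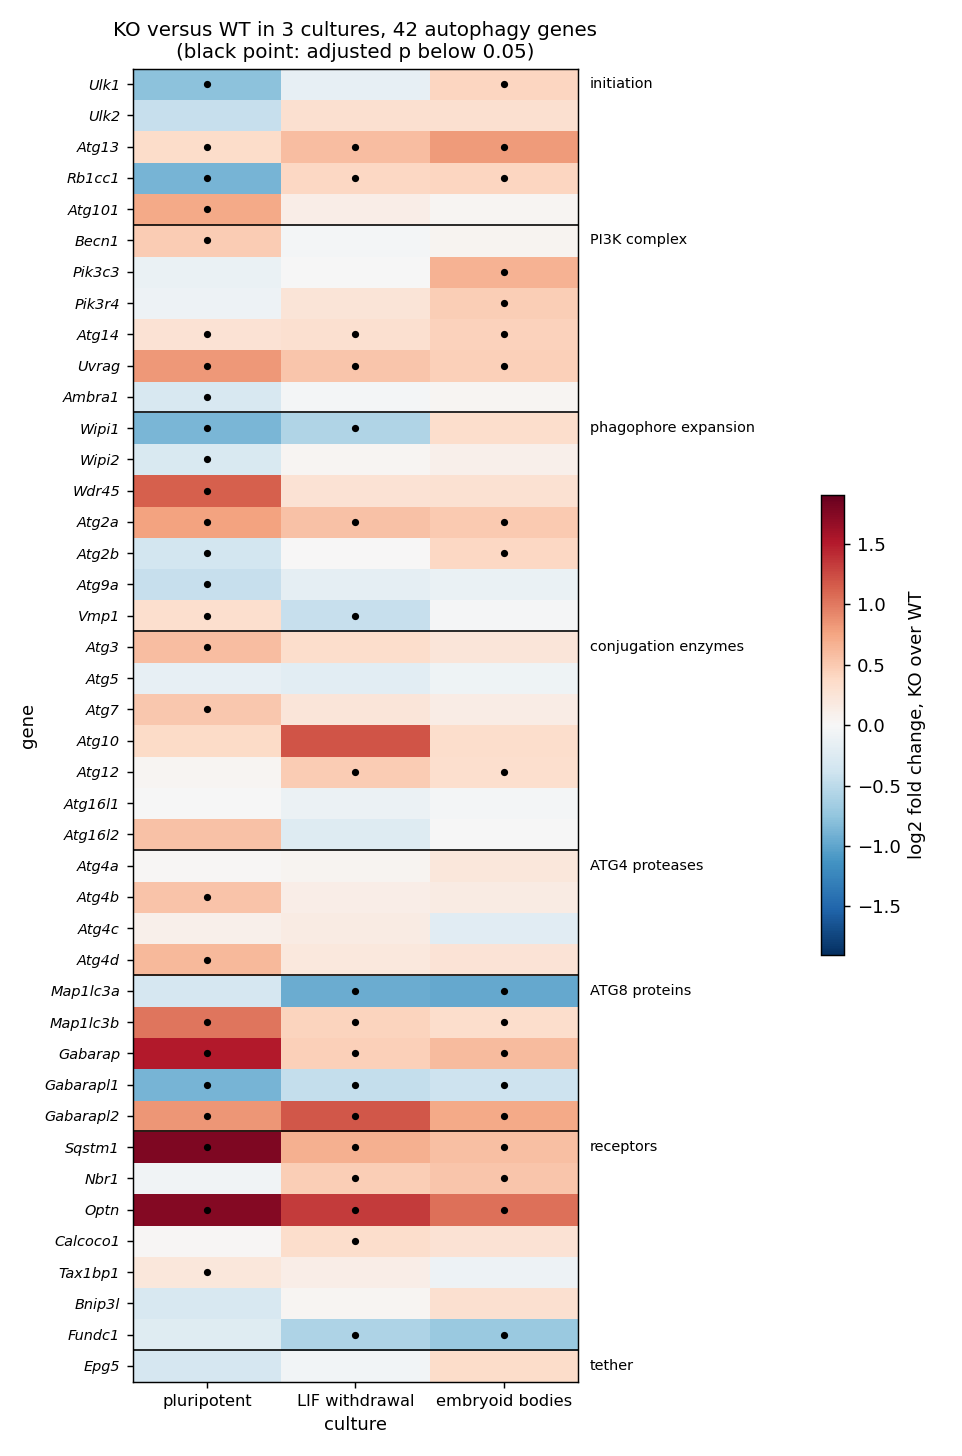
Log2 fold change of KO over WT (colour scale) for the 42 members (rows, ordered by role) in the 3 cultures (columns); black points mark adjusted p below 0.05 in edgeR's quasi-likelihood test. Points stand in all 3 columns for 11 genes, of which 9 were higher in KO throughout and Gabarapl1 lower throughout, while Rb1cc1 (and, with points in 2 columns, Ulk1) was lower in pluripotent culture and higher in embryoid bodies.

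Markers of early differentiation also differed between the genotypes. All 3 primitive streak markers fell in KO after LIF withdrawal and in embryoid bodies, with summed levels of 11.3 and 14.8 FPKM in KO against 41.6 FPKM in WT, and of 15.4 and 15.3 against 64.7 FPKM. In pluripotent culture their sums were 3.66 and 3.96 FPKM in KO and 6.08 FPKM in WT. Within KO cells neither T nor Mixl1 rose from pluripotent culture to either other culture, while Eomes rose (log2 fold change 2.11 and 2.31). Esrrb changed by -0.36 and -0.18 in KO, the second without passing, and by -1.39 and -1.51 in WT. Neural markers moved in opposite directions, with Sox1 higher in KO after LIF withdrawal and in embryoid bodies (log2 fold change 4.64 and 3.86) and Nes lower (-3.01 and -2.32). Sox1 and Nes differed already in pluripotent culture (1.09 and -1.75). Pax6 fell after LIF withdrawal (-1.11) and did not pass in the other cultures. Of the endoderm markers, Gata6 rose in pluripotent culture and after LIF withdrawal (1.17 and 1.73) and fell in embryoid bodies (-2.13). Both genes were scarce, with 0.3 to 1.59 FPKM for Pax6 and 0.26 to 1.86 FPKM for Gata6 over all libraries, so these changes rest on few counts. Gata4 passed in none, and Sox17 was below the level for testing. The part of these differences in the changes of autophagy genes was not tested. In bulk RNA, fewer cells of a type and less RNA per cell cannot be told apart.

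The initiation group comprised Ulk1 and Ulk2, the kinases, and their partners Atg13, Rb1cc1 (FIP200, the scaffold) and Atg101. Atg13, which links the kinase to the scaffold, stood at 25.5 and 25.4 FPKM in KO against 21.8 FPKM in WT in pluripotent culture, at 29.6 and 26.0 against 19.3 FPKM after LIF withdrawal, and at 33.1 and 31.8 against 18.5 FPKM in embryoid bodies. Every KO library was above its WT library, as in 15.1% of all genes. The log2 fold change of Atg13 was 0.59 ± 0.11 after LIF withdrawal (± standard error from the test, adjusted p = 0.0011), 0.80 ± 0.11 in embryoid bodies (adjusted p = 0.000122) and 0.58 ± 0.10 over the 3 cultures (adjusted p = 0.00394), where Atg13 had the largest change of the group. Ulk1 went the other way in pluripotent culture, with 27.6 and 29.5 FPKM in KO against 53.4 FPKM in WT (log2 fold change -0.78 ± 0.08, adjusted p = 8.26e-06). After LIF withdrawal its levels were 28.5 and 27.7 FPKM in KO and 32.5 FPKM in WT, a difference that did not pass, and in embryoid bodies 32.5 and 32.8 FPKM in KO and 24.5 FPKM in WT, where it rose. The KO libraries held Ulk1 within a narrow band, 27.6 to 32.8 FPKM, over the 3 cultures, and the spread was in the WT libraries. Rb1cc1 stood at 3.39 and 3.95 FPKM in KO pluripotent cells against 7.36 FPKM in WT (log2 fold change -0.88 ± 0.11, adjusted p = 5.12e-05). It rose in the other 2 cultures, with 7.41 and 7.88 against 6.09 FPKM and with 6.73 and 7.25 against 5.25 FPKM. Atg101, which stabilises Atg13, passed in pluripotent culture and in neither other culture. There it had 51.9 and 53.6 FPKM in KO and 34.8 FPKM in WT. Ulk2 was scarce, at 0.79 to 1.59 FPKM in all libraries.

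In the PI3-kinase complex all calls except that of Ambra1 were rises. Uvrag, the subunit of the endosomal form of the complex, had 12.4 and 12.1 FPKM in KO and 7.54 FPKM in WT in pluripotent culture. Its levels were 13.0 and 11.7 against 8.94 FPKM after LIF withdrawal, and 17.2 in both KO libraries against 12.5 FPKM in embryoid bodies. The log2 fold changes were 0.83 ± 0.12 in pluripotent culture (adjusted p = 0.000149), 0.53 ± 0.12 after LIF withdrawal (adjusted p = 0.0044) and 0.60 ± 0.10 over the 3 cultures (adjusted p = 0.00326). Atg14, the subunit of the autophagy form, also rose in each culture. It had 13.8 and 14.3 FPKM in KO and 12.7 FPKM in WT in pluripotent culture, 11.3 and 10.9 against 9.38 FPKM after LIF withdrawal, and 10.2 and 10.1 against 7.47 FPKM in embryoid bodies. Pik3c3, the catalytic subunit VPS34, did not pass in pluripotent culture (18.7 and 17.2 FPKM in KO, 21.3 FPKM in WT) and rose in embryoid bodies, where KO libraries had 19.2 FPKM each and WT had 12.2 FPKM (log2 fold change 0.66 ± 0.11, adjusted p = 0.000705). Its partner Pik3r4 (VPS15) rose in embryoid bodies too, with 12.3 and 14.2 FPKM in KO against 9.55 FPKM in WT. Becn1, the scaffold Beclin 1, passed in pluripotent culture alone, at 32.0 and 34.5 FPKM in KO and 26.0 FPKM in WT. Ambra1, a Beclin 1 regulator, fell there, with 14.0 and 15.4 FPKM in KO and 19.5 FPKM in WT (log2 fold change -0.30 ± 0.10, adjusted p = 0.0196), a call that was lost without KO pluripotent replicate 1 (adjusted p = 0.0921) and with DESeq2 (adjusted p = 0.114).

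All 7 genes of membrane expansion were called in pluripotent culture, 3 higher and 4 lower, where 51.8% of all genes were called. Atg2a, a lipid transfer protein that feeds the growing membrane, had 24.7 and 22.0 FPKM in KO and 15.0 FPKM in WT there. It had 15.8 and 13.5 against 10.4 FPKM after LIF withdrawal and 13.7 and 11.8 against 8.98 FPKM in embryoid bodies. The log2 fold changes of Atg2a were 0.77 ± 0.13, 0.56 ± 0.14 and 0.50 ± 0.14 (adjusted p = 0.000411, 0.0071 and 0.0143), and the last lost its call without KO embryoid body replicate 1 (0.39, adjusted p = 0.0898). Its paralog Atg2b did not follow, since it fell in pluripotent culture, with 5.83 and 5.72 FPKM in KO and 8.02 FPKM in WT (log2 fold change -0.35 ± 0.09, adjusted p = 0.00662), and rose in embryoid bodies, with 7.83 and 7.81 against 5.93 FPKM. Wdr45 (WIPI4), which works with ATG2 proteins, had 40.9 and 37.7 FPKM in KO pluripotent cells and 18.9 FPKM in WT (log2 fold change 1.13 ± 0.13, adjusted p = 1.61e-05). In the other cultures its KO libraries lay just above WT and did not pass, at 15.7 to 18.8 FPKM against 13.8 and 15.2 FPKM. Wipi1, a reader of the lipid mark, had 4.26 and 5.15 FPKM in KO and 9.31 FPKM in WT (log2 fold change -0.86 ± 0.19, adjusted p = 0.00227). After LIF withdrawal it had 4.82 and 6.15 against 8.46 FPKM (log2 fold change -0.57 ± 0.19, adjusted p = 0.0338), and this call was lost without KO LIF withdrawal replicate 1 (-0.42, adjusted p = 0.143) and without either KO embryoid body library (adjusted p = 0.0551 and 0.0547). Wipi2, which recruits the conjugation machinery, had 22.3 and 24.0 FPKM in KO and 31.0 FPKM in WT in pluripotent culture. Atg9a, a lipid scramblase carried on vesicles, had 7.57 and 8.29 FPKM in KO and 11.8 FPKM in WT (log2 fold change -0.43 ± 0.11, adjusted p = 0.00691). Vmp1, a scramblase of the endoplasmic reticulum, rose there with 21.9 FPKM in both KO libraries against 19.2 FPKM, and fell after LIF withdrawal, with 14.0 and 12.8 FPKM in KO and 19.0 FPKM in WT (log2 fold change -0.44 ± 0.11, adjusted p = 0.00669). With DESeq2 the pluripotent calls of 3 of the 4 genes that fell, Atg9a, Atg2b and Wipi2, were lost (adjusted p = 0.111, 0.0707 and 0.0914), and that of Wipi2 also without KO pluripotent replicate 1 (adjusted p = 0.084). Also lost with DESeq2 were those of Vmp1 and Wipi1 after LIF withdrawal (adjusted p = 0.0818 and 0.29).

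Of 7 genes for conjugation enzymes, 2 rose in pluripotent culture (Atg3 and Atg7), and Atg12 rose in the other 2 cultures. ATG7 is the E1-like enzyme that activates both ubiquitin-like proteins, and ATG3 is the E2-like enzyme that hands LC3 to its lipid. Atg3 had 13.2 and 13.3 FPKM in KO pluripotent cells and 9.61 FPKM in WT, and Atg7 had 7.25 and 7.91 FPKM and 5.80 FPKM. For both genes every KO library lay above its WT library in the other cultures too (15.1% of all genes), without passing the test. Atg12, the ubiquitin-like protein joined to ATG5, had 21.4 and 23.2 FPKM in KO and 16.7 FPKM in WT after LIF withdrawal (log2 fold change 0.48 ± 0.10, adjusted p = 0.00349). Its target Atg5 ranged from 11.6 to 16.6 FPKM in KO and from 14.8 to 16.6 FPKM in WT, and Atg16l1, which places the conjugate on the membrane, from 12.8 to 16.0 and from 13.4 to 17.5 FPKM, with no call. Atg16l2 lay between 2.63 and 6.99 FPKM. The largest estimate of the group over the 3 cultures belonged to Atg10, the E2-like enzyme for ATG12, at 0.60 ± 0.30, which did not pass (adjusted p = 0.174). With as few as 8 counts in a library, Atg10 was the least covered member. Apart from Atg10 and Ulk2, the members, 40 in number, had at least 50 counts in every library.

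Promoters were read for 34 members with an entry in the RefSeq table of build GRCm38.p6, as windows of 250 bases before to 50 after the start site. The letters CACGTG, the E-box core bound by TFEB and TFE3 among many factors, were in 4 of them, Atg14, Atg3, Atg5 and Atg7. That share, 11.8%, stands beside 11.84% of the tested genes with a promoter entry and 8.09% of all 27025 promoters. The longer palindrome TCACGTGA, which contains CACGTG and is the core of the element named after coordinated lysosomal expression, was in Atg3 alone (2.9% of members, 2.15% of tested genes, 1.12% of all). TGACNNNGC, the core of the antioxidant response element, was in 5 members, Ulk2, Atg13, Vmp1, Map1lc3b and Tax1bp1 (14.7%, beside 16.77% of tested genes and 13.99% of all). Both strands were searched, and a match is a description of letters only. The 250 bases before the start site of Atg3 and Atg7 are shown as examples of the E-box, which is in capitals (with its TCACGTGA flank where present). Both genes rose in pluripotent culture only. Of the other genes with the E-box, Atg14 rose in every culture and Atg5 had no call. Whether the motif bears on these changes was not tested. The windows of Sqstm1, Gabarap and Gabarapl1 are shown because Sqstm1 and Gabarap rose and Gabarapl1 fell in every culture, and they hold none of the 3 motifs.
Atg3 (chr16:45158579-45158828, plus strand): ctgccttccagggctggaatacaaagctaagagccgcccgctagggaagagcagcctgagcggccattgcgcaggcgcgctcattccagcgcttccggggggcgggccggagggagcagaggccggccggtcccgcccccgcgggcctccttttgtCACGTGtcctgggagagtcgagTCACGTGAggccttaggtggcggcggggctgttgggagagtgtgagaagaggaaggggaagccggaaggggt
Atg7 (chr6:114670846-114671095, plus strand): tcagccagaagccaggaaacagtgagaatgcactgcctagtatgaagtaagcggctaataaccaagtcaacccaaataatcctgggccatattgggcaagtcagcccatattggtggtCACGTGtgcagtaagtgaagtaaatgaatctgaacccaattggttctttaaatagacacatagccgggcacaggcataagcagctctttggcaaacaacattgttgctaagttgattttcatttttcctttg
Sqstm1 (chr11:50210821-50211070, minus strand): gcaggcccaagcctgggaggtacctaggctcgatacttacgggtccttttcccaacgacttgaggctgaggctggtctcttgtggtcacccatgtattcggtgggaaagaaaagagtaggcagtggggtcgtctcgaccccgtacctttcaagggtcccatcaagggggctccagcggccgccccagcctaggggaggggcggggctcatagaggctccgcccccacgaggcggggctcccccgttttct
Gabarap (chr11:69991120-69991369, plus strand): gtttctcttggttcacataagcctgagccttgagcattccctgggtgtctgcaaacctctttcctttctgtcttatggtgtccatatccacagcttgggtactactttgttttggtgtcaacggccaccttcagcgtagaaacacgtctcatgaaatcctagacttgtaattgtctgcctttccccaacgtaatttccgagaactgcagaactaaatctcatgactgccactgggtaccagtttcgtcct
Gabarapl1 (chr6:129532942-129533191, plus strand): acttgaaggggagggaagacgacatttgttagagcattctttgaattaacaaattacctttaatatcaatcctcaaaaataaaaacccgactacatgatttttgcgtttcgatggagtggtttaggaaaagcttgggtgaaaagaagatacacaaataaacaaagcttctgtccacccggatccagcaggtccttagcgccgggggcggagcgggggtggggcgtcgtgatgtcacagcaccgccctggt
In the Atg3 window the CACGTG cores begin at positions -94 and -71 from the start site, and in the Atg7 window at -132.

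ATG4 proteases trim newly made ATG8 proteins and later strip them from membranes. Atg4b, the most active of the family on LC3, had 12.3 and 14.0 FPKM in KO pluripotent cells and 9.87 FPKM in WT, and Atg4d had 22.4 and 24.9 FPKM and 16.7 FPKM. Both rose there and neither passed in the other cultures, although each KO library of both genes lay above WT in all 3 (15.1% of all genes). Over the 3 cultures the log2 fold change of Atg4d was 0.36 ± 0.10 (adjusted p = 0.034), the largest of the family. That call was lost without WT pluripotent, without either KO pluripotent library, without KO LIF withdrawal replicate 1 and without KO embryoid body replicate 1, with adjusted p of 0.0514, 0.0643, 0.0704, 0.0796 and 0.0829. The log2 fold change was 0.23 without WT pluripotent, and 0.24 without the 3 pluripotent libraries (adjusted p = 0.0704). Atg4a and Atg4c stayed at 2.20 to 3.22 FPKM and 2.46 to 4.75 FPKM over all libraries, with no call.

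The ATG8 family split. Gabarapl2 (GATE-16), Map1lc3b (LC3B) and Gabarap rose in KO in every culture, while Gabarapl1 fell in every culture and Map1lc3a (LC3A) in 2 of 3. Gabarapl2, the ATG8 gene with the highest level in pluripotent and LIF-withdrawn cells, had 377 and 346 FPKM in KO and 221 FPKM in WT in pluripotent culture. On LIF withdrawal it had 239 and 217 against 105 FPKM, and in embryoid bodies 121 and 107 against 68.8 FPKM. Its log2 fold changes were 0.84 ± 0.11 (adjusted p = 6.07e-05), 1.18 ± 0.12 (adjusted p = 1e-05) and 0.72 ± 0.12 (adjusted p = 0.000597). Gabarap had 154 and 146 FPKM in KO pluripotent cells and 57.7 FPKM in WT (log2 fold change 1.50 ± 0.13, adjusted p = 2.21e-06). The gap was smaller in the other cultures, with 100.05 and 82.8 against 69.4 FPKM after LIF withdrawal and 136 and 125 against 85.8 FPKM in embryoid bodies (0.60 ± 0.12, adjusted p = 0.00249). Map1lc3b, the protein most used as a marker of autophagosomes, had 106 and 111 FPKM in KO and 58.3 FPKM in WT in pluripotent culture (log2 fold change 1.02 ± 0.09, adjusted p = 2.22e-06). Later it had 76.0 and 74.3 against 58.7 FPKM, and 95.0 and 91.6 against 73.9 FPKM. For these 3 genes every KO library lay above the WT library of its culture, as in 15.1% of all genes.

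Gabarapl1 had 7.64 and 7.95 FPKM in KO pluripotent cells and 15.6 FPKM in WT (log2 fold change -0.88 ± 0.16, adjusted p = 0.000587). It had 9.72 and 12.6 against 16.0 FPKM after LIF withdrawal (-0.46 ± 0.15, adjusted p = 0.0335), and 19.7 and 18.9 against 25.4 FPKM in embryoid bodies (-0.40 ± 0.14, adjusted p = 0.0413). The calls after LIF withdrawal and in embryoid bodies were weak. After LIF withdrawal the call was lost with DESeq2 (adjusted p = 0.221) and without KO LIF withdrawal replicate 1 (-0.31, adjusted p = 0.164), and in embryoid bodies with DESeq2 (adjusted p = 0.267) and without KO pluripotent replicate 2, KO embryoid body replicate 1 or replicate 2 (adjusted p = 0.0535, 0.0876 and 0.136). Map1lc3a did not pass in pluripotent culture, where it had 17.4 and 23.0 FPKM in KO and 27.2 FPKM in WT. It fell after LIF withdrawal, with 15.7 and 13.6 against 29.3 FPKM (-0.94 ± 0.17, adjusted p = 0.00118), and in embryoid bodies, with 16.9 and 19.3 against 35.6 FPKM (-0.98 ± 0.17, adjusted p = 0.000734). Each of the 6 KO libraries lay below its WT library for both genes, as in 22.1% of all genes. Over the 3 cultures the change of Map1lc3a was -0.75 ± 0.16 (adjusted p = 0.00796), which missed the threshold without WT LIF withdrawal (-0.66, adjusted p = 0.0545). The treatment of reads shared by near-identical copies is not given in the sources used here, and all 5 ATG8 genes had counts within 0.005 of whole numbers in every library.

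Summed over the 5 genes, ATG8 levels in pluripotent culture were 662 and 633 FPKM in KO against 379.6 FPKM in WT. On LIF withdrawal they were 441 and 399.9 against 278 FPKM in WT, and in embryoid bodies 388 and 362 against 289.5 FPKM in WT. The sum was higher in KO in each culture. In both genotypes it was lower after LIF withdrawal and in embryoid bodies than in pluripotent culture. The make-up moved as well. Gabarapl2 gave 57.0% and 54.6% of the sum in KO pluripotent cells and 58.2% in WT, and after LIF withdrawal it still gave 54.3% and 54.2% in KO while WT had 37.7%. In embryoid bodies its share was 31.1% and 29.6% in KO and 23.8% in WT. Map1lc3a and Gabarapl1, the genes that were lower in KO, made up the smallest shares. Map1lc3a gave 2.6% to 5.3% in KO and 7.2% to 12.3% in WT, and Gabarapl1 gave 1.2% to 5.2% in KO and 4.1% to 8.8% in WT. In WT both shares were highest in embryoid bodies.

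**Figure D2:**
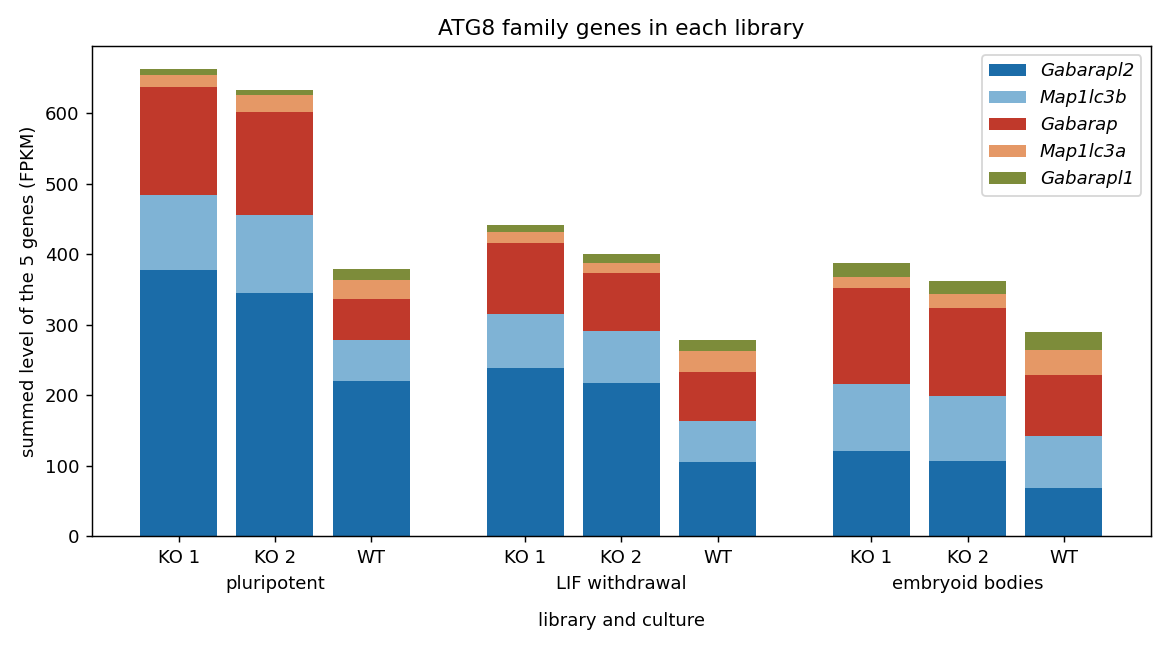
Summed FPKM of the 5 ATG8 family genes in each library (bars; KO 1, KO 2 and WT for each culture), split by gene (colours). In pluripotent culture KO bars reach 662 and 633 FPKM and the WT bar 379.6 FPKM. With LIF withdrawn they reach 441 and 399.9 against 278 FPKM, and in embryoid bodies 388 and 362 against 289.5 FPKM.

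Receptors had the 2 largest changes of all members in pluripotent culture. Sqstm1 encodes p62, which binds ubiquitin-tagged cargo and ATG8 proteins and is itself degraded by autophagy. It had 263 and 243 FPKM in KO pluripotent cells and 80.2 FPKM in WT (log2 fold change 1.78 ± 0.10, adjusted p = 7.36e-08). After LIF withdrawal it had 131 and 134 against 87.2 FPKM (0.67 ± 0.09, adjusted p = 0.000164), and in embryoid bodies 230.4 and 216 against 149 FPKM (0.58 ± 0.09, adjusted p = 0.000417). Every KO library lay above the WT library of its culture, as in 15.1% of all genes. Over the 3 cultures the change was 0.97 ± 0.21 (adjusted p = 0.00935). Optn, optineurin, a receptor for ubiquitin-tagged mitochondria and bacteria, was less abundant. It had 9.17 and 8.82 FPKM in KO and 2.92 FPKM in WT in pluripotent culture (1.74 ± 0.19, adjusted p = 1.29e-05). Its levels were 9.75 and 11.5 against 4.40 FPKM after LIF withdrawal (1.33 ± 0.17, adjusted p = 8.93e-05), and 14.8 and 16.7 against 7.62 FPKM in embryoid bodies (1.04 ± 0.16, adjusted p = 0.000294). Over the 3 cultures Optn had the largest change of all 42 members, 1.35 ± 0.15 (adjusted p = 0.000491).

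Nbr1, a receptor related to p62, did not pass in pluripotent culture, at 30.3 and 33.4 FPKM in KO and 35.9 FPKM in WT. It rose after LIF withdrawal, with 40.9 and 44.3 against 32.1 FPKM (log2 fold change 0.47 ± 0.09, adjusted p = 0.00121), and in embryoid bodies, with 48.2 and 48.9 against 33.8 FPKM (0.53 ± 0.09, adjusted p = 0.000529). Fundc1, a receptor in the outer mitochondrial membrane, went down instead. It had 4.79 and 5.15 FPKM in KO and 6.33 FPKM in WT in pluripotent culture, with no call, then 4.16 and 3.71 against 6.16 FPKM (-0.59 ± 0.16, adjusted p = 0.0143), and 7.02 and 7.71 against 11.9 FPKM (-0.70 ± 0.14, adjusted p = 0.00247). The first of these calls was lost without KO LIF withdrawal replicate 2 (-0.49, adjusted p = 0.0703), and both with DESeq2 (adjusted p = 0.161 and 0.0535). Bnip3l (NIX), another mitochondrial receptor, had no call, with 45.0 to 65.5 FPKM in KO and 44.1 to 67.2 FPKM in WT. Calcoco1, a receptor for parts of the endoplasmic reticulum, rose after LIF withdrawal (20.1 and 23.4 FPKM in KO, 18.0 FPKM in WT), and Tax1bp1, a ubiquitin-binding receptor, rose in pluripotent culture by a small step (44.6 and 47.3 FPKM in KO, 42.9 FPKM in WT). The tethering factor Epg5, which helps autophagosomes meet lysosomes, had 2.79 to 3.79 FPKM in KO and 2.44 to 3.86 FPKM in WT and no call, with -0.02 ± 0.13 over the 3 cultures (adjusted p = 0.942).

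**Figure D3:**
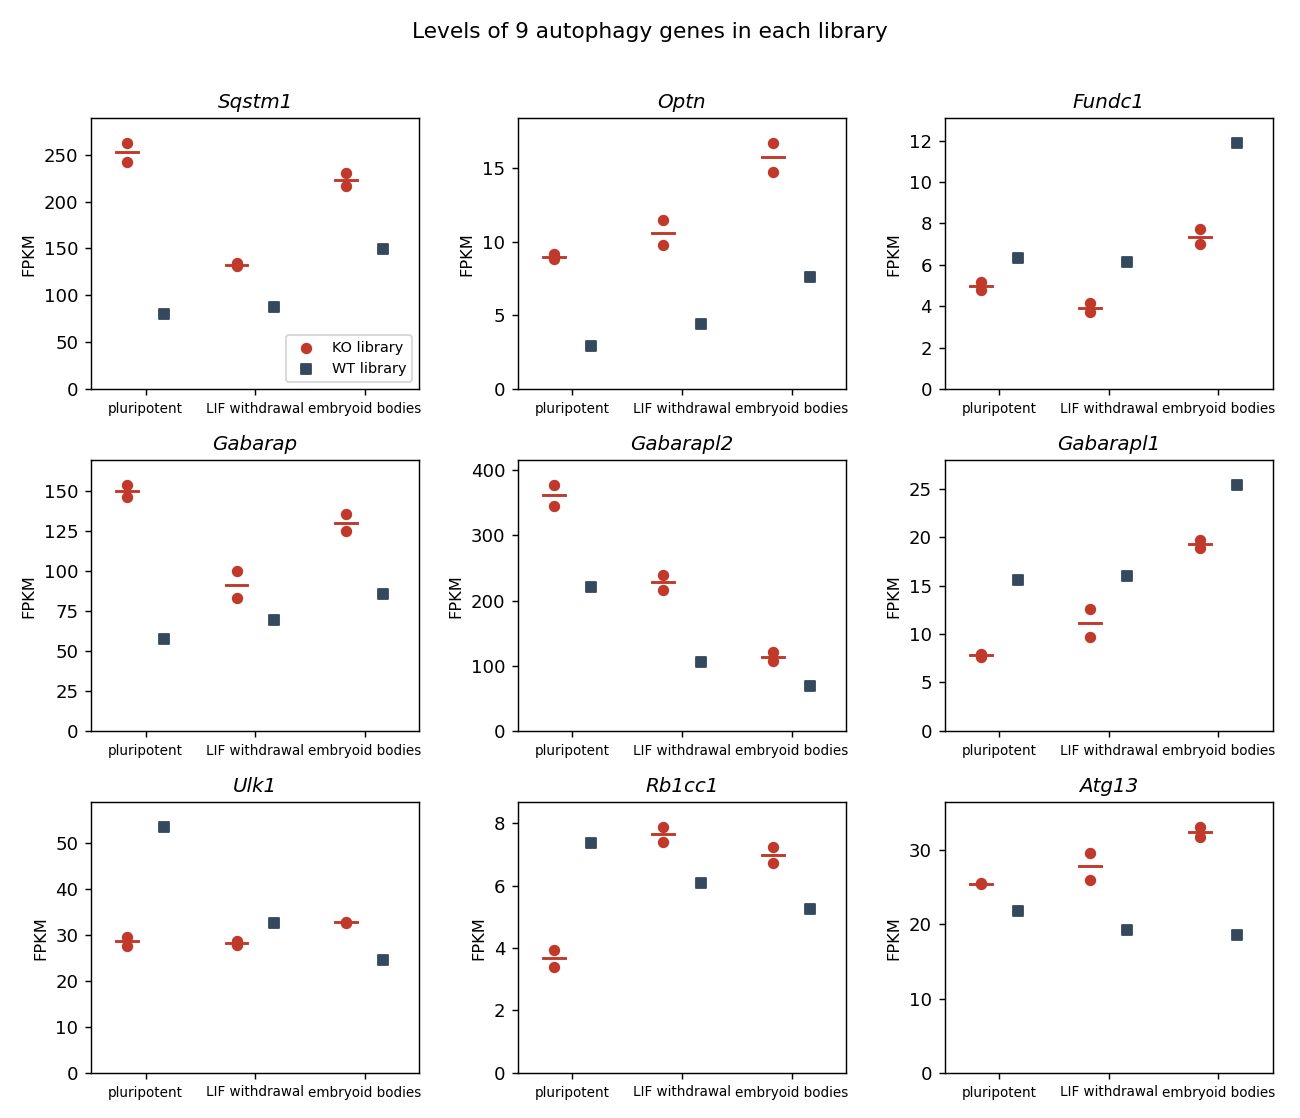
FPKM of 9 members in each library (KO circles with their mean as a bar, WT squares; vertical axis from 0) of the 3 cultures. Sqstm1, Optn, Gabarap, Gabarapl2 and Atg13 lie above WT in all KO libraries and Fundc1 and Gabarapl1 below, while Ulk1 and Rb1cc1 change sides between cultures.

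Within each genotype the cultures were compared with pluripotent cells, and the KO and WT responses then with each other. In KO cells 9 members rose and 16 fell on LIF withdrawal, 25 of 42, where 59.2% of all genes were called (30.2% higher and 29.0% lower). In WT cells, with 1 library on each side and the spread borrowed from the KO pairs, none rose and 4 fell (Gabarapl2, Ulk1, Atg2a and Atg14), where 20.5% of all genes were called (11.6% higher and 8.9% lower). At an unadjusted p below 0.05 in edgeR, 2 members were higher and 8 lower, and DESeq2 called 2, both lower. The shares of all genes beside these counts are not given here. The calls of Atg2a and Atg14 were lost with DESeq2 (adjusted p = 0.108 and 0.356), and that of Atg14 without any 1 of the 4 KO pluripotent or embryoid body libraries (adjusted p = 0.0517, 0.0558, 0.0648 and 0.0648). The largest KO changes were a fall of Wdr45, with 16.3 and 15.7 FPKM after LIF withdrawal against 40.9 and 37.7 FPKM before it (log2 fold change -1.31 ± 0.10, adjusted p = 5.83e-07), and a rise of Rb1cc1 (1.02 ± 0.10, adjusted p = 2.51e-06). Sqstm1 fell in KO (-0.96 ± 0.07, adjusted p = 4.99e-07) and did not pass in WT (0.15 ± 0.11, adjusted p = 0.378). Gabarapl2 fell in WT (-1.04 ± 0.13, adjusted p = 0.00016), and so did Ulk1 (-0.69 ± 0.10, adjusted p = 0.000354).

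Embryoid bodies differed from pluripotent cells in 29 of 42 members in KO, 15 higher and 14 lower (61.0% of all genes called, 31.0% higher and 30.0% lower), and in 20 of 42 in WT, 10 in each direction (38.6% of all genes called, 19.7% higher and 18.9% lower). Gabarapl2 had the largest fall in both genotypes, at -1.77 ± 0.09 in KO (adjusted p = 2.7e-08) and -1.66 ± 0.13 in WT (adjusted p = 2.83e-06). Optn rose in both, by 0.70 ± 0.12 in KO (adjusted p = 0.00037) and 1.40 ± 0.22 in WT (adjusted p = 0.000354), and Atg2a and Atg14 fell in both. The largest rise in KO was that of Gabarapl1 (1.20 ± 0.13, adjusted p = 8.68e-06), to 19.7 and 18.9 FPKM in embryoid bodies, against 7.64 and 7.95 FPKM in pluripotent cells. In WT the fall of Ulk1 (-1.11 ± 0.10, adjusted p = 5.24e-06) was next to that of Gabarapl2. Sqstm1 rose in WT (0.92 ± 0.11, adjusted p = 4.67e-05) and fell slightly in KO (-0.28 ± 0.07, adjusted p = 0.00478), and this KO call was lost without KO embryoid body replicate 2 (-0.24, adjusted p = 0.0581) and had the opposite sign on quantile-normalized FPKM (0.13, adjusted p = 0.109). Without that library the KO count was 19 members in place of 29, and DESeq2 called 18.

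The difference of the KO and WT responses, taken as the KO response minus the WT response, passed for 12 of 42 members for LIF withdrawal (5 higher and 7 lower in KO; 32.4% of all genes called, 17.5% higher and 14.9% lower) and for 20 of 42 for embryoid bodies (11 higher and 9 lower; 41.9% of all genes called, 22.4% higher and 19.5% lower). Both sets of differences use the same pluripotent libraries, so they are not independent of each other or of the KO versus WT test in that culture. Rb1cc1 had the largest positive difference in both cases, 1.27 ± 0.16 for LIF withdrawal (adjusted p = 0.000144) and 1.29 ± 0.16 for embryoid bodies (adjusted p = 9.19e-05). Ulk1 differed by 0.63 ± 0.12 (adjusted p = 0.00175) and 1.19 ± 0.12 (adjusted p = 1.92e-05), with a fall in WT and no call in KO. The difference of Sqstm1 was -1.11 ± 0.13 (adjusted p = 9.05e-05) and -1.20 ± 0.13 (adjusted p = 3.16e-05), and that of Gabarap -1.04 ± 0.18 (adjusted p = 0.000989) and -0.91 ± 0.18 (adjusted p = 0.00157). Wdr45 had differences of -0.85 ± 0.19 and -0.84 ± 0.18 (adjusted p = 0.00452 and 0.00328). Wipi1 and Pik3c3 had positive differences for embryoid bodies, at 1.20 ± 0.27 (adjusted p = 0.00377, and 0.0674 with DESeq2) and 0.77 ± 0.15 (adjusted p = 0.0018). Without KO embryoid body replicate 2 the embryoid body count was 12 members in place of 20, and DESeq2 called 11.

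**Figure D4:**
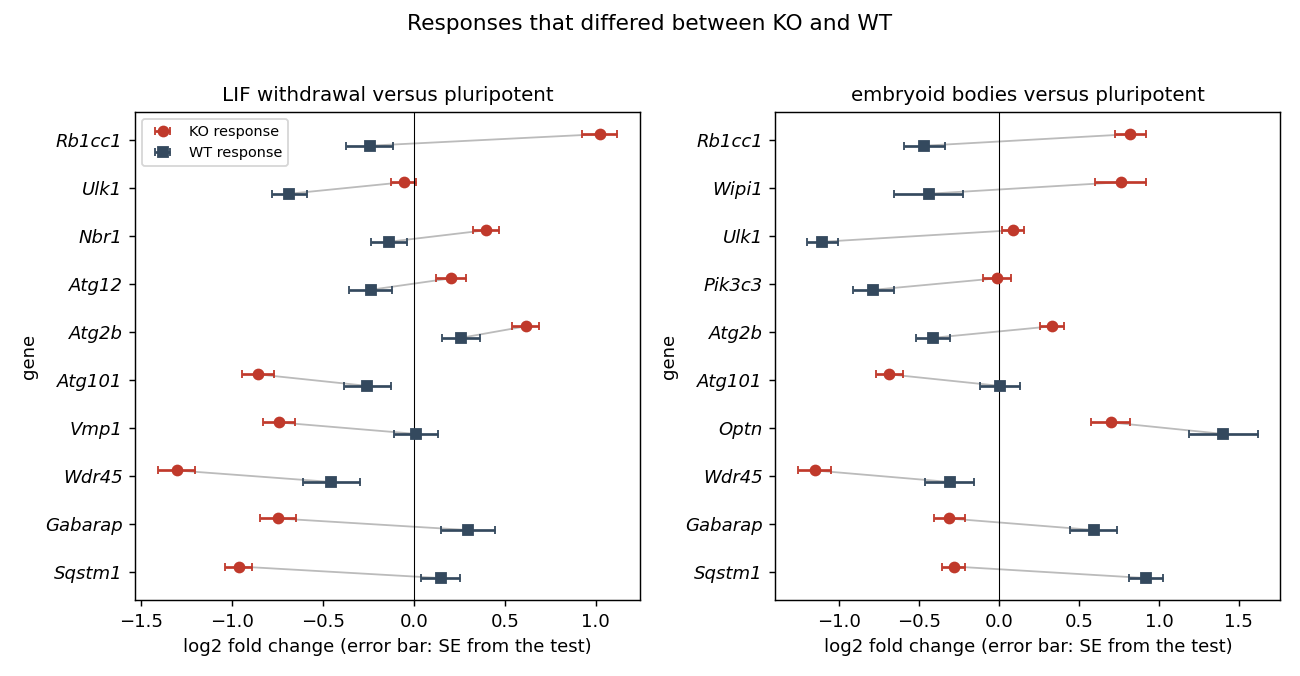
Log2 fold changes of LIF withdrawal over pluripotent culture (left) and of embryoid bodies over pluripotent culture (right) in KO (circles) and WT (squares) for the members with the 5 largest positive and 5 largest negative called differences; bars are standard errors from the test and grey lines join the pair. Sqstm1 and Gabarap lie left of 0 in KO and right of 0 in WT in both panels, and Rb1cc1 the other way round.

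Other genes of the pathway were read from lists outside the 42 members, and their counts stand beside 25.5%, 18.4% and 19.4% of all genes higher and 26.3%, 17.5% and 17.8% lower in the order of the cultures. All 6 genes listed for the lysosome membrane and its proteases were tested, and 5 rose in KO in each culture, Lamp1, Ctsa, Ctsb, Ctsd and Ctsl. Ctsa, a lysosomal carboxypeptidase, had 127 FPKM in each KO pluripotent library and 27.3 FPKM in WT (log2 fold change 2.34 ± 0.09, adjusted p = 8.55e-09). Of 14 genes for fusion with the lysosome, 8 rose and 2 fell in pluripotent culture, 4 rose and 10 did not pass after LIF withdrawal, and 6 rose and 1 fell in embryoid bodies. Vamp8, a SNARE of that fusion step, changed sides, with 28.2 and 30.5 FPKM in KO against 14.1 FPKM in WT in pluripotent culture (1.18 ± 0.17, adjusted p = 0.000128), and 22.3 and 19.4 against 38.3 FPKM in embryoid bodies (-0.88 ± 0.15, adjusted p = 0.000731). Among 13 tested of 14 further regulators and scaffolds, 5 rose and 1 fell, 6 rose and 2 fell, and 6 rose and 2 fell in the order of the cultures. Snx30 and Wdfy3, a sorting nexin and the scaffold ALFY, rose in all 3, and Trp53inp1 fell in all 3. Bcl2 was below the level for testing.

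Of 14 other selective receptors, 5 rose and 3 fell, 3 rose and 2 fell, and 4 rose and 2 fell in the order of the cultures, where 51.8%, 35.8% and 37.2% of all genes were called. Bnip3, a hypoxia-responsive mitochondrial receptor, had 18.1 and 50.6 FPKM in KO and 164 FPKM in WT in pluripotent culture (log2 fold change -2.14 ± 0.36, adjusted p = 0.000339), and its KO libraries stood well apart from each other. Among 6 transcription factors linked to autophagy genes, Tfeb rose in each culture and Tfe3 fell in each. Tfeb had 32.6 and 25.4 FPKM in KO pluripotent cells and 19.6 FPKM in WT (0.70 ± 0.16, adjusted p = 0.0037), and Tfe3 had 14.9 and 16.7 FPKM in KO and 28.3 FPKM in WT (-0.75 ± 0.10, adjusted p = 4.92e-05). The Tfeb calls after LIF withdrawal and in embryoid bodies were lost without replicate 1 of the KO libraries of that culture (log2 fold change 0.70, adjusted p = 0.0665, and 0.56, adjusted p = 0.121). Foxo3 fell in pluripotent culture, with 7.30 and 7.11 FPKM in KO and 27.4 FPKM in WT (-1.80 ± 0.10, adjusted p = 7.67e-08), and rose in embryoid bodies, with 20.1 FPKM in both KO libraries and 10.5 FPKM in WT (0.93 ± 0.11, adjusted p = 3.69e-05).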

How the data were processed

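RNA was measured in 9 libraries, and groups and replicate numbers came from the labels. Per the submitters' processing notes, the tools include Bowtie2 and the genome build is mm8. Quantifier, strandedness and annotation version are not given in the sources used here. For every gene listed, the authors deposited an expected count (an estimated count), an FPKM value and a gene length; genes with no count are not listed and were set to 0. Between 78.0% and 78.4% of a library's deposited counts were whole (tolerance 0.005). Gene IDs were matched to the RefSeq table of GRCm38, used for names, 20234 by ID and 9 by accession, and 44 stayed unmatched. Promoter windows come from RefSeq GRCm38.p6 and not from the build of the counts.

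Expected counts were rounded and tested in R 4.3.3 with edgeR 4.0.16 (quasi-likelihood, TMM factors 0.94 to 1.04) over the 13990 genes whose mean FPKM reached 0.5. Benjamini-Hochberg adjustment ran over all of them for each comparison, and adjusted p below 0.05 made a call. A mean for each of 6 groups gave 3 residual degrees of freedom and a biological coefficient of variation of 6.52%; the additive fit of culture and genotype gave 5 and 18.1%, and its spread mixes differences between cultures with those within KO pairs. WT libraries have no replicate and are assumed to vary like the KO pairs. Within KO pairs the counts differed beyond sampling noise (chi-square per degree of freedom 3.09 to 4.72). A standard error is the absolute log2 fold change divided by the root of the F statistic. The code was tested on simulated data.

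Statistics are given, for KO versus WT, for at most the 8 largest rises and 8 largest falls among called members with both KO libraries on that side of WT; for responses and their differences, for at most 5 each way; for the largest change of each role group; and for Sqstm1. Related lists give at most 3 each way. The members, lists and rules were chosen with earlier results of these data known. Alternatives were DESeq2 1.42.0, DESeq2 size factors in edgeR, no level filter, limma 3.58.1 on log2(FPKM + 1) and log2(FPKM + 0.1) and on quantile-normalized values, the replicate number as a block, and leaving out each library. The fit without the 3 pluripotent libraries was added after seeing the data.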

Additional observations from a re-analysis of the deposited data

Results flagged for a closer look

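The members below were picked because the difference of their KO and WT responses to LIF withdrawal or embryoid body culture was called. At most the 5 largest each way are listed, and some other members named for their responses had no such call. The test was of that difference (KO response minus WT response, log2 scale, edgeR's quasi-likelihood test). For LIF withdrawal the positive differences were those of Rb1cc1 (1.27), Ulk1 (0.63), Nbr1 (0.53), Atg12 (0.44) and Atg2b (0.36), and the negative ones those of Sqstm1 (-1.11), Gabarap (-1.04), Wdr45 (-0.85), Vmp1 (-0.76) and Atg101 (-0.60). For embryoid bodies they were positive for Rb1cc1 (1.29), Wipi1 (1.20), Ulk1 (1.19), Pik3c3 (0.77) and Atg2b (0.74), and negative for Sqstm1 (-1.20), Gabarap (-0.91), Wdr45 (-0.84), Optn (-0.70) and Atg101 (-0.69). Each difference contains the 3 pluripotent libraries, of which the KO pair lay apart on the first principal component, and the part of that in the differences was not tested. The call of Atg2b for LIF withdrawal was just below the threshold. It lost its call under 13 of the alternatives run for it, Optn under 6 and Atg12 under 5, while Atg101 for LIF withdrawal and Wipi1 lost theirs with DESeq2 alone.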

How the results depend on the processing

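Of 107 calls of named members, 82 were kept under every alternative run and 25 were lost under at least 1. Most of these calls were picked as the largest changes of a comparison, so the share kept need not hold for smaller calls. DESeq2 called 16, 11 and 10 members for KO versus WT in the order of the cultures, 15 and 2 for the KO and WT responses to LIF withdrawal, 18 and 12 for the KO and WT embryoid body responses and 11 for the difference of the embryoid body responses; it called 15 over the 3 cultures, as edgeR did, and 8 for the difference of the LIF withdrawal responses (12 with edgeR). The cause was not tested. Shares of all genes called under the alternatives are not given here, so a lower count need not be particular to the members. Leaving out each library in turn gave 20 to 27, 14 to 18 and 15 to 21 members in the 3 cultures, 11 to 18 over them, 18 to 26 and 3 to 4 for the responses to LIF withdrawal, 19 to 29 and 17 to 20 for embryoid bodies, and 10 to 13 and 12 to 20 for the differences; the lowest embryoid body counts, 19 and 12, came without KO embryoid body replicate 2. Without the WT library of a culture its KO versus WT comparison cannot be made. With limma on log2(FPKM + 1), the split of the KO embryoid body response was 18 higher and 10 lower (15 and 14 with edgeR), and that of the difference 12 and 5 (11 and 9). On log2(FPKM + 0.1) the median of all genes in pluripotent culture moved by -0.12, to -0.13, with 13 members higher and 8 lower, and that of the embryoid body difference by 0.12, to 0.151, with 10 higher and 5 lower. Sqstm1 in the KO embryoid body response reversed on quantile-normalized FPKM (0.13, against -0.28).

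The replicate numbers were not taken as pairs, since the deviations of same-numbered KO libraries correlated at 0.183, 0.022 and 0.071. With the replicate block the counts were 27, 18 and 21 in the 3 cultures, 12 over them, 28 and 5 for the responses to LIF withdrawal, 31 and 20 for embryoid bodies, and 17 and 22 for the differences, and Atg4d lost its call over the 3 cultures (adjusted p = 0.0584). The WT libraries are single, so depth and replicates limit small changes, and genes with few counts, such as Atg10, cannot show them.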
